A study of Bos taurus with 6 samples.

Results

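The genes of the hypoxia-inducible factor (HIF) pathway were examined in bovine blastocysts derived from oocytes matured with or without melatonin (MT). The rows were chosen by gene name: the alpha subunits HIF1A and EPAS1, their partner ARNT, the prolyl hydroxylases EGLN1, EGLN2 and EGLN3, the asparaginyl hydroxylase HIF1AN, the ubiquitin ligase component VHL and the target VEGFA. Of these 9 names, 8 had a row among the 36075 rows of the table, and VHL was not analysed here. Of the 8 rows, 6 passed the filter on low values and were tested, whereas ARNT and EGLN3 are given by their values.

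The study compared blastocysts from 2 groups of 3 libraries each. Cumulus-oocyte complexes from slaughterhouse cattle ovaries were matured in vitro for 22 h without MT (control) or with 1e-07 mol/L MT (MT-treated). Oocytes of both groups were fertilized in vitro, and embryos were cultured under 5% oxygen, an atmosphere well below that of air. Each library was made from a pool of 3 blastocysts, and the 3 libraries of a group came from separate production runs. Values are TPM (transcript abundance corrected for gene length and library total), so that levels can be set side by side between genes. Sequencing depth, which the study tabulates, was not used here, and TPM alone gives no counting error.

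HIF is a transcription factor made of an oxygen-sensitive alpha subunit and the stable partner ARNT. In the presence of oxygen, the EGLN enzymes hydroxylate prolines of the alpha subunit, VHL binds the hydroxylated form and the ubiquitin ligase around it marks it for the proteasome, while HIF1AN hydroxylates an asparagine and blocks the binding of the co-activators EP300 and CREBBP. When oxygen is scarce the alpha subunit accumulates, and genes of glycolysis, iron handling and blood vessel growth are induced. This control acts mainly on the protein, which was not measured here.

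In MT-treated blastocysts EPAS1, VEGFA and HIF1A, the last against control libraries listed at 0, were higher and EGLN1 and HIF1AN were lower than in control blastocysts, while EGLN2 did not pass the test and VEGFA was lower after quantile normalization (limma on log2(TPM + 1), Benjamini-Hochberg adjustment over all 11953 genes tested, threshold 0.05). ARNT was listed at 0 in every library, and EGLN3 was at 0 or close to it in every library. The call of 5 of the 6 tested genes stands beside a table in which 95.7% of the genes tested were called, 61.6% higher and 34.1% lower, so the number of calls is not a result about these genes. The groups did not overlap for these 5 genes, and for 96.1% of all genes tested. The median difference of the 6 tested genes was 0.66 on the log2(TPM + 1) scale, against 1.12 for all genes tested. Both medians depended on the scaling, with 0.002 against 0.56 after quantile normalization and 1.14 against 1.6 after median centring. Over genes with at least 1 TPM in all libraries the median was -0.27.

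Several facts of the whole table bear on these values. The control libraries had between 8854 and 8953 genes above 0 and the MT-treated libraries between 14372 and 14408, and 4037 (33.8%) of the tested genes were at 0 in all control libraries. These zeros included 6 of the 10 listed subunits of RNA polymerase III, an enzyme that every cell uses, but 0 of the 13 listed subunits of RNA polymerase II. A value of 0 is therefore reported only as how a gene is listed, and not as absence of its transcript. Of the blastocyst markers, KRT8 and KRT18 of the trophectoderm and POU5F1 of the inner cell mass were abundant in both groups, whereas CDX2, NANOG and LIN28A were listed at 0 in every control library. TFAP2A of the trophectoderm had 31.5, 38.9 and 37.8 TPM across control libraries against 0.46, 0.46 and 0.55 TPM across MT-treated libraries, and SPIC of the inner cell mass 175, 173 and 175 TPM against 75.4, 77.2 and 75.4 TPM. CDX2 had 17.2, 15.0 and 16.1 TPM and NANOG 8.93, 8.23 and 8.88 TPM across MT-treated libraries. In pools of whole embryos, fewer cells of a type and less RNA per cell cannot be told apart. The study ran its treatments side by side within a production run, but no source used here states that a replicate number marks the same run in both groups, and the libraries were treated as unpaired.

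**Figure D1:**
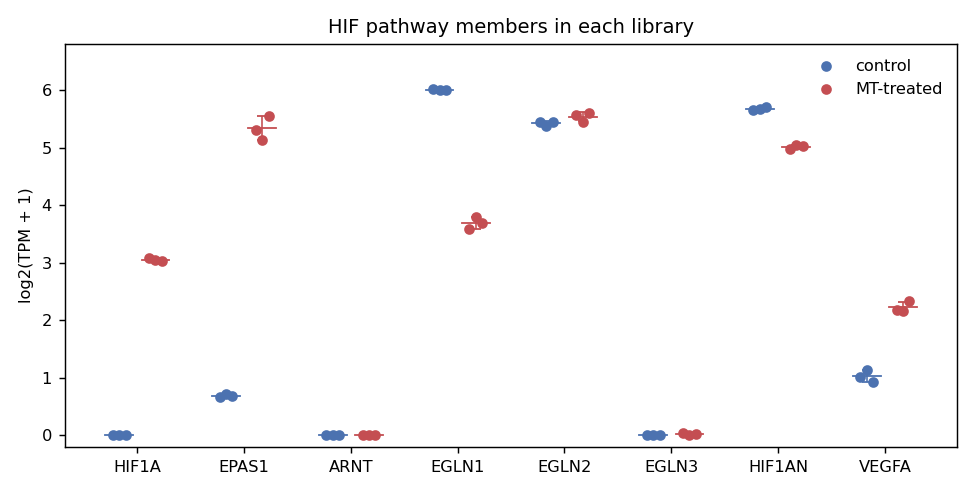
Level of the 8 HIF pathway genes in each library, as log2(TPM + 1). Points are libraries (3 control in blue, 3 MT-treated in red), horizontal lines are group means and vertical bars are the SD. The groups lie apart for HIF1A, EPAS1, EGLN1, HIF1AN and VEGFA, they overlap for EGLN2 and EGLN3, and ARNT is at 0 throughout.

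EPAS1 (ENSBTAG00000003711), the alpha subunit of the factor first described in endothelium, had the largest rise among the pathway genes chosen by name that were above 0 in all libraries. It had 0.59, 0.65 and 0.61 TPM across control libraries against 38.8, 34.1 and 46.0 TPM across MT-treated libraries. Every MT-treated library was far above every control library, and the MT-treated libraries also differed more among themselves, with a coefficient of variation of 15.1% against 4.95%. The mean rose 64.3-fold, from 0.617 ± 0.031 to 39.6 ± 5.97 TPM (SD, n = 3 each). The difference on the log2(TPM + 1) scale was 4.64 (standard error 0.106, 95% confidence interval 4.38 to 4.90, adjusted p = 4.21e-08 by limma). It was 3.32 after quantile normalization, 5.12 after median centring and 5.78 with a pseudocount of 0.1. EPAS1 was under 1 TPM in each control library and so passed the filter on low values only through the MT-treated group, which favours a difference in this direction. Among the genes above 0 in a library, EPAS1 stood between the 20.4th and 21.4th percentile in control and between the 77.6th and 82.9th percentile in MT-treated blastocysts.

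HIF1A (ENSBTAG00000020935), the most widely expressed alpha subunit, was listed at 0 in each control library, against 7.48, 7.22 and 7.20 TPM across MT-treated libraries. The MT-treated values lay close together, with a coefficient of variation of 2.14%, and all were above the listed zeros. HIF1A passed the filter on low values only through the MT-treated group, so its call (adjusted p = 1.28e-09 by limma) follows from how the control libraries are listed, and no fold is given. Such a pattern was common at this level, since 49.7% of the 1830 tested genes whose MT-treated mean lay between 5 and 10 TPM had no control library above 0. In the MT-treated libraries, where both transcripts were listed, EPAS1 exceeded HIF1A by a factor of 5.18, 4.73 and 6.39.

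HIF3A (ENSBTAG00000018948), which encodes the remaining alpha subunit and gives rise to forms that restrain HIF activity, moved the other way. It is not among the genes chosen by name, but belongs to a list of pathway genes. It had 41.4, 43.4 and 42.8 TPM across control libraries against 7.0, 7.54 and 7.41 TPM across MT-treated libraries, a difference of -2.39 on the log2(TPM + 1) scale (standard error 0.037, adjusted p = 7.41e-09 by limma). After quantile normalization, in which all libraries are forced to share one set of values, the difference was -3.77. The TPM of the 3 alpha subunits summed to 43.2 ± 1.02 in control and 54.2 ± 5.91 in MT-treated blastocysts (SD, n = 3 each). Within that sum HIF3A made up 98.5 to 98.6% in the control libraries and 12.2 to 15.4% in the MT-treated libraries. EPAS1 made up 1.40 to 1.48% in control and 69.8 to 75.9% in MT-treated blastocysts, and HIF1A 11.9 to 14.8% in the MT-treated libraries. These shares within a library do not move when all genes of that library are scaled by one factor. They were computed after the values had been seen and are given without a test.

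The partner subunit ARNT (ENSBTAG00000021037), without which the alpha subunits do not bind DNA, was listed at 0 in all 6 libraries. Its paralog ARNT2 was listed at 0 in all 6 libraries as well. No comparison between the groups could be made for either gene.

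Of the prolyl hydroxylases, EGLN1 alone was called. EGLN1 (ENSBTAG00000053296), the main oxygen sensor for HIF1A in most cells, had 63.6, 62.9 and 62.8 TPM across control libraries against 11.0, 12.9 and 11.9 TPM across MT-treated libraries. The lowest control library was well above the highest MT-treated library. The mean fell from 63.1 ± 0.441 to 11.9 ± 0.966 TPM (SD, n = 3 each), so that control was 5.29-fold higher, and the difference on the log2(TPM + 1) scale was -2.31 (standard error 0.056, 95% confidence interval -2.45 to -2.17, adjusted p = 5.75e-08 by limma). The difference was -1.83 after median centring and -3.46 after quantile normalization.

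EGLN2 (ENSBTAG00000017996), a relative that is not itself induced by hypoxia, had 42.6, 40.4 and 42.6 TPM across control libraries against 46.2, 42.6 and 47.6 TPM across MT-treated libraries. MT-treated replicate 2 and control replicate 1 had the same value, so the groups touched. The difference was 0.12 on the log2(TPM + 1) scale (95% confidence interval -0.003 to 0.23, adjusted p = 0.0566 by limma). EGLN2 passed the threshold without MT-treated replicate 2, with a difference of 0.16 (adjusted p = 0.00898 by limma). It also passed after median centring, in which the median of genes at 1 TPM or more in all 6 libraries is made equal (0.59), after quantile normalization (0.40), and with the listed TPM of each library rescaled to the same sum (0.15). With the replicate number as a block the adjusted p was 0.0178 by limma. EGLN3 (ENSBTAG00000008172), a relative that is strongly induced by hypoxia in many tissues, was listed at 0 in each control library, against 0.03, 0 and 0.02 TPM across MT-treated libraries.

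Together, the 3 EGLN genes had 105 ± 1.48 TPM in control and 57.4 ± 2.0 TPM in MT-treated blastocysts (SD, n = 3 each). EGLN1 made up 59.9, 60.9 and 59.6% of that sum across control libraries against 19.2, 23.3 and 20.0% across MT-treated libraries. EGLN2 made up 39.9 ± 0.678% in control and 79.2 ± 2.13% in MT-treated blastocysts (SD, n = 3 each). The more abundant EGLN transcript was therefore EGLN1 in each control library and EGLN2 in each MT-treated library. For the sum and for both shares the groups did not overlap (exact permutation test over libraries, two-sided, p = 0.1, adjusted p = 0.125 over 5 ratios and sums). With 3 libraries against 3, p = 0.1 is the smallest value that this exact permutation test can give.

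**Figure D2:**
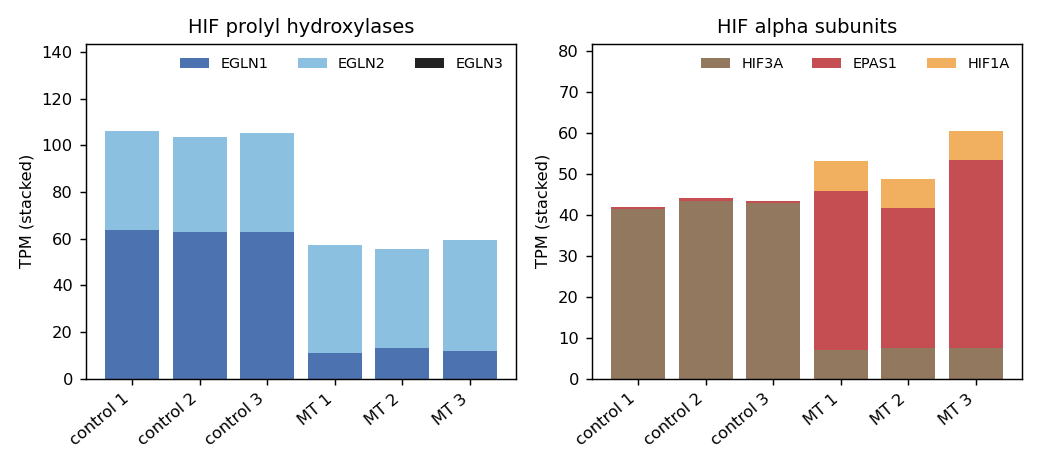
Stacked TPM of the 3 HIF prolyl hydroxylases (left) and the 3 HIF alpha subunits (right) in each of the 6 libraries, with bars starting at 0. EGLN1 and HIF3A take most of each control bar, whereas EGLN2 and EPAS1 take most of each MT-treated bar. EGLN3 is too low to be seen.

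HIF1AN (ENSBTAG00000000092), also known as factor inhibiting HIF, had 49.2, 49.7 and 51.1 TPM across control libraries against 30.5, 31.9 and 31.6 TPM across MT-treated libraries. The groups lay apart, and the spread within a group was small beside the gap. Control was 1.6-fold higher, and the difference on the log2(TPM + 1) scale was -0.66 (standard error 0.029, adjusted p = 1.10e-06 by limma). With median centring the difference shrank to -0.18 (adjusted p = 0.000793 by limma), and with quantile normalization to -0.39. Within a library, the log2 ratio of HIF1AN to EGLN1 was -0.34 ± 0.037 for control against 1.39 ± 0.085 for MT-treated blastocysts (SD, n = 3 each; exact permutation test, two-sided, p = 0.1, adjusted p = 0.125 over the same 5 ratios and sums).

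VEGFA (ENSBTAG00000005339), the vascular growth factor that is a classical HIF target, was a low-abundance transcript in both groups. It had 1.02, 1.2 and 0.91 TPM across control libraries against 3.53, 3.48 and 4.06 TPM across MT-treated libraries. All MT-treated values were above all control values, and the mean was 3.54-fold higher. The difference on the log2(TPM + 1) scale was 1.2 (standard error 0.073, 95% confidence interval 1.02 to 1.38, adjusted p = 6.39e-06 by limma). VEGFA reached 1 TPM in 2 control libraries and so also passed the filter only through the MT-treated group. Its direction depended on the scaling: after quantile normalization over all rows of the table, those at 0 included, the difference was -1.24 (adjusted p = 2.02e-06 by limma). Among the genes above 0 in a library, VEGFA moved from between the 22.1st and 24.4th to between the 30.9th and 33.1st percentile. These ranks come from more genes in the MT-treated than in the control libraries, and HIF1AN, which was lower in TPM, moved up in the same ranking from between 68.8 and 69.1 to between 75.5 and 76.5.

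**Figure D3:**
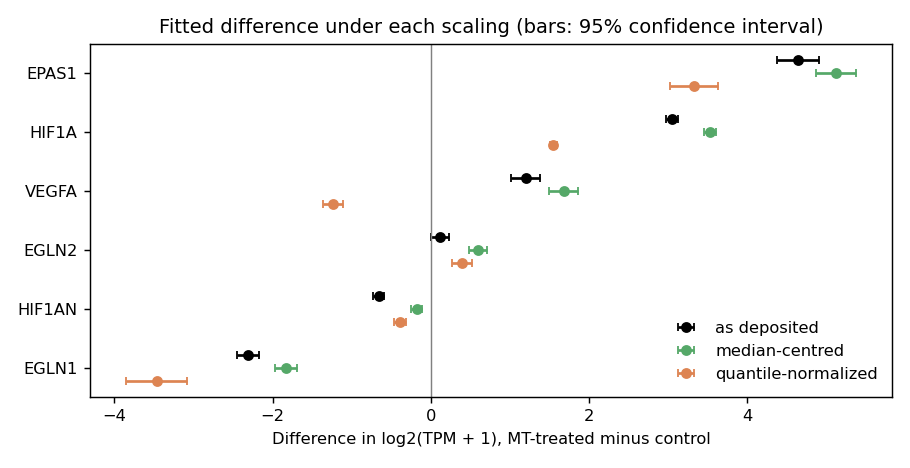
Fitted difference in log2(TPM + 1) between MT-treated and control blastocysts for the 6 tested genes, with 95% confidence intervals, for values as deposited, median-centred and quantile-normalized. VEGFA changes sign after quantile normalization (1.2 against -1.24) and EGLN2 lies above 0 under both alternatives. The value for HIF1A depends on the pseudocount because its control libraries were listed at 0.

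The order of the genes by level differed between the groups. In control blastocysts EGLN1 was highest, followed by HIF1AN and EGLN2, and these 3 did not overlap in their ranges over libraries. VEGFA and EPAS1 followed at about 1 TPM or less, also without overlap, and the other genes were listed at 0. In MT-treated blastocysts EGLN2 was highest with 42.6 to 47.6 TPM and EPAS1 was next with 34.1 to 46.0 TPM, and these neighbours overlapped. HIF1AN, EGLN1, HIF1A and VEGFA followed in that order without overlap.

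The other components that act with VHL were examined beside the hydroxylases, although VHL itself was not analysed here. ELOC, which links VHL to its cullin, had 258, 253 and 251 TPM across control libraries against 135, 140 and 137 TPM across MT-treated libraries, a difference of -0.88 on the log2(TPM + 1) scale (adjusted p = 4.23e-08 by limma) and of -0.40 after median centring. ELOB, CUL2 and RBX1, named after their values were seen, were also lower as deposited, with differences of -0.38, -0.42 and -0.38, but were at 0.096, 0.058 and 0.095 after median centring. ELOB, CUL2 and RBX1 were at -0.10, -0.80 and -0.24 after quantile normalization. Centring removed a shift of -0.48 between the groups.

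Of the 10 other tested genes of oxygen sensing and HIF degradation, 5 were higher and 5 lower. Over all genes tested, 61.6% were higher and 34.1% lower. Of the higher genes of the list, 3 had only zeros in control. The median difference was 0.21 on the log2(TPM + 1) scale, against 1.12 over all genes tested. Median centring gave 7 higher and 2 lower, beside 8412 and 3038 of the 11953 genes tested. Quantile normalization gave 5 of each, beside 6614 and 4604. SIAH1 and SIAH2, ubiquitin ligases that degrade EGLN proteins under low oxygen, were listed at 0 in every control library. They reached 13.6, 14.0 and 14.0 TPM (SIAH1) and 16.3, 15.7 and 16.6 TPM (SIAH2) across MT-treated libraries. OS9, a lectin of the endoplasmic reticulum, had 54.1, 49.3 and 56.6 TPM across control libraries against 17.3, 18.8 and 15.1 TPM across MT-treated libraries (difference -1.59, adjusted p = 4.28e-06 by limma).

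Of the 4 other tested subunits and co-activators, 1 was higher and 3 lower, beside the same shares of 61.6% and 34.1%. The related co-activators EP300 and CREBBP are acetyltransferases recruited by HIF. EP300 had 34.2, 35.2 and 35.1 TPM across control libraries against 7.63, 8.14 and 8.09 TPM across MT-treated libraries (difference -2.0, adjusted p = 1.16e-08 by limma), and the difference was -3.44 after quantile normalization. CREBBP was listed at 0 in every control library, against 17.2, 25.2 and 26.2 TPM across MT-treated libraries. The median difference of the 4 genes was -1.12, against 1.12 over all genes tested. Median centring gave 2 higher and 2 lower, beside 8412 and 3038 of the 11953 genes tested. Quantile normalization gave 1 higher and 2 lower, beside 6614 and 4604.

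Among 12 genes that govern the synthesis or stability of HIF1A, 5 were higher, 5 lower and 2 not called. Over all genes tested, 61.6% were higher and 34.1% lower. The median difference of the 12 genes was 0.02, against 1.12 over all genes tested, and -0.022 against 0.56 after quantile normalization. Median centring gave 8 higher and 4 lower, beside 8412 and 3038 of the 11953 genes tested. FBXW7, which recognises HIF1A phosphorylated by GSK3B, had 24.2, 23.1 and 22.8 TPM across control libraries against 1.17, 1.11 and 1.05 TPM across MT-treated libraries (difference -3.53, adjusted p = 2.28e-09 by limma). GSK3B itself differed by -3.07 in the same direction. RACK1, a ribosomal scaffold that also promotes oxygen-independent loss of HIF1A, was 2.12-fold higher in MT-treated blastocysts (difference 1.09, adjusted p = 1.33e-09 by limma). MDM2, another ubiquitin ligase, was listed at 0 in every control library, against 35.8, 32.9 and 35.2 TPM across MT-treated libraries.

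Genes that HIF is known to induce were found among both the higher and the lower genes, as in the whole table, where 61.6% of the genes tested were higher and 34.1% lower. Of 19 tested glycolytic targets, 10 were higher and 9 lower. Their median difference was 0.69, against 1.12 over all genes tested, and -0.13 against 0.56 after quantile normalization. Of the higher genes, 4 had only zeros in control. Median centring gave 15 higher and 4 lower, beside 8412 and 3038 of the 11953 genes tested. Quantile normalization gave 9 higher and 10 lower, beside 6614 and 4604. PFKFB3, which makes the activator of phosphofructokinase and belongs to the PFKFB isoforms, was listed at 0 in each control library, against 40.4, 45.2 and 50.0 TPM across MT-treated libraries. PFKL, the liver form of phosphofructokinase, had 0.03, 0 and 0 TPM across control libraries against 42.8, 42.3 and 46.4 TPM across MT-treated libraries. PDK1, which inhibits pyruvate dehydrogenase, went the other way with 77.1, 73.6 and 70.3 TPM across control libraries against 10.1, 10.2 and 9.87 TPM across MT-treated libraries (difference -2.76, adjusted p = 5.22e-09 by limma), and the difference was -4.18 after quantile normalization. The glucose transporter SLC2A1 had 192, 188 and 193 TPM across control libraries against 115, 110 and 114 TPM across MT-treated libraries (difference -0.75, adjusted p = 1.40e-07 by limma), and the difference shrank to -0.27 after median centring.

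Of 34 other HIF targets with a row, 12 were listed at 0 in all libraries, EPO among them, and 19 were tested. Of these, 11 were higher and 8 lower, beside 61.6% and 34.1% over all genes tested. Their median difference was 0.55, against 1.12 over all genes tested. Of the higher genes, 6 had only zeros in control. Median centring gave 11 higher and 7 lower, beside 8412 and 3038 of the 11953 genes tested. Quantile normalization gave 10 higher and 9 lower, beside 6614 and 4604. CA9, a carbonic anhydrase that is a widely used marker of HIF activity, had 20.9, 19.6 and 21.1 TPM across MT-treated libraries and was listed at 0 in the control libraries. TFRC, the receptor that takes up transferrin-bound iron, had 105, 107 and 106 TPM across control libraries against 6.51, 5.83 and 5.60 TPM across MT-treated libraries (difference -3.94, adjusted p = 3.63e-09 by limma). KDM4B, an oxygen-dependent histone demethylase, had 47.9, 43.9 and 48.0 TPM across control libraries against 1.77, 1.57 and 1.31 TPM across MT-treated libraries (difference -4.23, adjusted p = 1.47e-08 by limma).

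**Figure D4:**
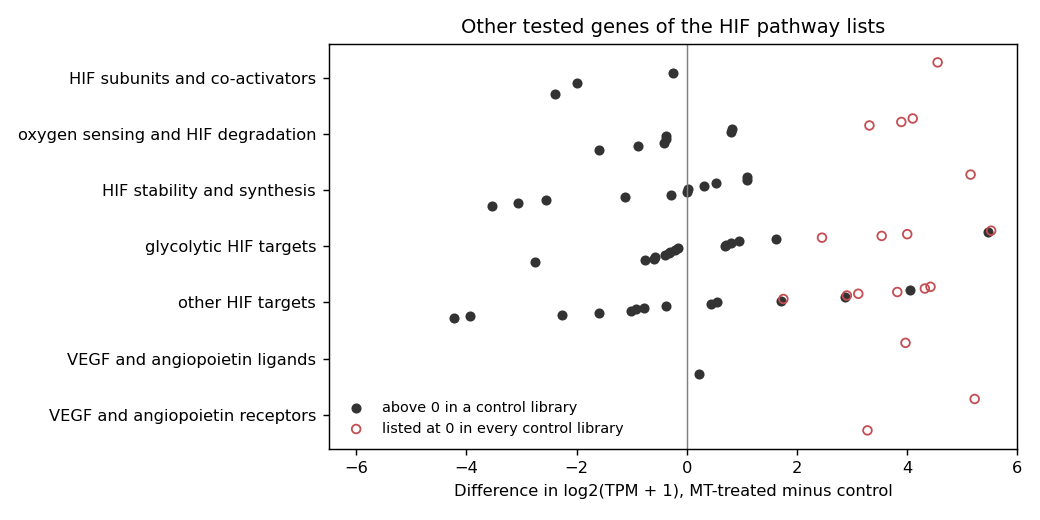
Difference in log2(TPM + 1) between MT-treated and control blastocysts for each other tested gene of the 7 pathway lists, 1 point per gene. Red open circles are genes listed at 0 in every control library, whose position depends on the pseudocount. Higher and lower genes occur together in the first 5 lists. The 4 tested VEGF and angiopoietin genes lie above 0, beside 61.6% of all genes tested that were called higher. Of these 4, VEGFB alone was above 0 in a control library.

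Around VEGFA, few ligands and receptors reached the level required for testing. Of the 6 other VEGF and angiopoietin ligands, 3 were listed at 0 in all libraries and 2 were tested. VEGFB, a ligand with a minor role in vessel growth, had 18.2, 18.3 and 18.9 TPM across control libraries against 22.5, 20.8 and 22 TPM across MT-treated libraries. Its difference of 0.22 (adjusted p = 0.00132 by limma) was 0.043 and not called after quantile normalization, and 0.70 after median centring. ANGPT1, a ligand of the receptor TEK, was listed at 0 in each control library, against 16.7, 14.0 and 13.5 TPM across MT-treated libraries, while TEK was listed at 0 in all libraries. Of the 7 receptors, 3 were listed at 0 in all libraries and 2 were tested. KDR, the main signalling receptor of VEGFA, was listed at 0 in each control library, against 35.0, 34.2 and 40.5 TPM across MT-treated libraries. The co-receptor NRP2 had 9.25, 8.58 and 8.35 TPM there and was listed at 0 in the control libraries. These tested ligands and receptors were all called higher as deposited, beside 61.6% of all genes tested. ANGPT1, KDR and NRP2 passed the filter on low values only through the MT-treated group.

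EPAS1 and KDR are also known from endothelium, and markers of endothelial and blood cells were therefore examined. Of 7 markers, 3 were tested, 1 higher and 2 lower, beside 61.6% and 34.1% over all genes tested, so that these calls are not a result about the markers. The TPM of the list summed to 30.2 to 31.4 in the control libraries and 31.0 to 33.0 in the MT-treated libraries. CDH5, the cadherin that defines endothelium, and the leukocyte genes PTPRC and CD14 were listed at 0 in all libraries. PECAM1 was lower in the MT-treated libraries (7.21, 7.16 and 8.39 TPM) than in the control libraries (28.4, 27.7 and 27.3 TPM). Whether endothelial cells bear on the values of EPAS1 and KDR was not tested. HBB, a globin, had 23.2, 24.8 and 23.9 TPM across MT-treated libraries and was listed at 0 in the control libraries.

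Markers of the lineages of the embryo are given beside the share of 95.7% called over all genes tested, and their counts are not a result about lineages. Of 6 inner cell mass markers 4 were higher and 1 lower, of 8 trophectoderm markers 6 were higher and 2 lower, and of 4 tested hypoblast markers 3 were higher and 1 lower. The summed TPM of the hypoblast markers was 451 to 456 in control and 462 to 468 in MT-treated libraries, and was mostly APOA1. APOA1 had 451, 455 and 453 TPM across control libraries against 400.5, 395 and 398 TPM across MT-treated libraries. PDGFRA and HNF4A were listed at 0 in each control library. They had 22.52, 22.85 and 24.21 TPM (PDGFRA) and 7.68, 11.13 and 12.04 TPM (HNF4A) across MT-treated libraries. GATA6, which marks the hypoblast, had 0.34, 0.44 and 0.20 TPM across control libraries against 30.8, 32.1 and 33.1 TPM across MT-treated libraries. Like EPAS1, the markers GATA6, PDGFRA and HNF4A passed the filter on low values only through the MT-treated group. As 61.6% of the genes tested were higher there, a shared direction with EPAS1 is not a result. The part of a shift between lineages in the HIF pathway values was not tested. Of 9 cumulus and granulosa markers with a row, 5 were listed at 0 in all libraries and FSHR and CYP11A1 were tested. Their list summed to 96.1 to 97.7 TPM in control and 96.9 to 99.5 TPM in MT-treated libraries. Of 9 oocyte markers, 6 were listed at 0 in all libraries and DPPA3, which is also expressed in early embryos, was the only one tested. The oocyte list summed to 194 to 198 TPM in control and 107 to 112 TPM in MT-treated libraries.

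The genes most like HIF1A and VEGFA in level over the 6 libraries were found by Euclidean distance of log2(TPM + 1) among tested genes with a symbol. For HIF1A these were TTC38 (distance 0.0214), KCTD16 (0.0259) and ESCO2 (0.0364), an acetyltransferase for sister chromatid cohesion. Each of them was listed at 0 in the control libraries and had a mean of 7.37, 7.37 and 7.24 TPM in MT-treated blastocysts. For VEGFA they were PEX6 (distance 0.236), JOSD1 (0.312) and TMEM33 (0.315), with control means of 0.893, 0.943 and 1.26 TPM and MT-treated means of 3.71, 3.75 and 3.41 TPM.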

How the data were processed

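RNA from 3 control and 3 MT-treated pools of bovine blastocysts was sequenced. The authors describe quality control with fastp and FastQC, alignment with STAR to the bovine genome, counting with featureCounts and testing with DESeq2. They deposited TPM per gene and library, and how TPM were derived from counts is not given in the sources used here. The methods name Smart-seq2 whereas the labels name a TruSeq kit, and the genome release also differs between them. TPM holds no counts, so a count test was not run on it and no counting error is given. The study's table of sequencing depth was not used here.

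Samples were grouped by their labels. Values were transformed to log2(TPM + 1), and a linear model with moderated variances (limma 3.58.1, eBayes with trend, R 4.3.3) was fitted to genes that reached 1 TPM in 3 or more libraries, with Benjamini-Hochberg adjustment over all genes tested. Fold changes on this scale understate changes of low genes. For ratios within a library, an exact permutation test (two-sided) was used. Counts were made with pandas 2.3.3 in Python 3.11.15 and figures with matplotlib 3.10.9. Alternatives changed the pseudocount (0.1), the filter (none, 5 TPM, or above 0 in all libraries), the scaling (quantile normalization, median centring, rescaled totals), the variance trend, the libraries (leave-one-out) and the model (replicate block). Leave-one-out fits kept the genes tested.

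The genes and lists were chosen with earlier results of these data known, and the lists come from general knowledge. Besides the genes of the pathway, the 2 highest and 2 lowest called genes of each list were named if their groups did not overlap and a group mean reached 10 TPM, and for HIF1A and VEGFA the 3 genes nearest in level. ELOB, CUL2, RBX1, NRP2, KDM4C and the marker genes given with values were named after their values were seen. A gene that meets this rule is not reported here. Sequence features were not analysed here. For this comparison, simulated data were used to test the fit, with 11953 genes, of which 200 were changed by 0.5 or 1 on the log2 scale. Of these, 79% were recovered with 5 false calls. The changed genes were drawn from those with a control mean above 1 on the log2(TPM + 1) scale, so HIF1A and EPAS1 could not be among them. In the real data 95.7% of the genes tested were called and 33.8% were at 0 in all control libraries, which the simulation did not mimic.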

Additional observations from a re-analysis of the deposited data

How the results depend on the processing

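The number of the 6 tested genes called higher was between 3 and 4 and the number called lower was 2 when single libraries were left out, and of these 6 VEGFA alone changed direction under any alternative, from 1.2 to -1.24 after quantile normalization. With genes above 0 in all libraries only, which removes HIF1A, 2814 genes of the table were called higher in place of 7367, and 16 of the other pathway list genes in place of 36. With median centring 19 of the other pathway list genes were called lower in place of 30, and 47 were called higher in place of 36. The same centring gave 3038 lower in place of 4071 and 8412 higher in place of 7367 among all genes tested. With it, ELOB (0.096), CUL2 (0.058) and RBX1 (0.095) changed sign. EGLN2 passed the threshold under 5 of the alternatives. With TPM + 1 in the ratios, the difference in share was 37.2 percentage points for EGLN2 in place of 39.3 and 0.757 for EGLN3 in place of 0.0287, and the difference in the log2 ratio of HIF1AN to EGLN1 was 1.65 in place of 1.73. The deviations of same-numbered libraries from their group means had correlations of -0.011, -0.001 and 0.059 across genes, which shows no pairing by number and does not show that no run is shared. With the replicate block 4 of the tested genes were called higher, EGLN2 being added (0.12, adjusted p = 0.0178 by limma), 7379 genes of the table were higher and 4082 lower, and the other called genes of the 6 kept their call. The cause of these changes was not tested. Depth was not used here, so values near 0 TPM, such as those of EGLN3, carry no stated precision.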

Other observations

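Some pairs of related genes in the HIF pathway lists had a different higher member in each group. Examples were picked after the values were seen and are given without a test, and such pairs were not counted over the lists. For SLC2A1 and SLC2A3, and for HK1 and HK2, the higher member was the same in both groups. The collagen prolyl hydroxylase subunit P4HA1 had 29.3, 33.6 and 32.2 TPM across control libraries, above the 10.1, 9.87 and 10.5 TPM of P4HA2. Across MT-treated libraries P4HA1 had 15.8, 17.1 and 15.7 TPM, below the 34.7, 35.6 and 35.6 TPM of P4HA2. EP300 and CREBBP together had 34.8 ± 0.571 TPM in control and 30.8 ± 5.19 TPM in MT-treated blastocysts (SD, n = 3 each). CREBBP was listed at 0 in every control library, as were 33.8% of the genes tested. Such a 0 is not read as absence of the transcript. EP300 therefore made up the whole of the listed sum in control, and 23.6 to 30.7% of it in the MT-treated libraries. KDM4B and KDM4C, demethylases of the same histone mark, together had 46.6 ± 2.35 TPM in control and 18.1 ± 3.97 TPM in MT-treated blastocysts (SD, n = 3 each). KDM4C had 0.11, 0.02 and 0 TPM across control libraries, at most 0.229% of that sum. In the MT-treated libraries it had 20.4, 16.5 and 12.9 TPM, 90.8 to 92.0% of the sum. Its control values at or near 0 TPM carry no stated precision.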
